A study of Mus musculus with 23 samples.

Results

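The unfolded protein response and the integrated stress response are read here through 10 genes: the transcription factors Atf4, Atf5, Atf3 and Ddit3, the ATF4 and CHOP target genes Trib3, Asns, Chac1 and Sesn2, and, from the endoplasmic reticulum (ER), Hspa5 and Xbp1. They were chosen by name, as the rows of the count tables whose Ensembl identifier maps to these genes in the GRCm39 annotation, and they are 10 of 56941 genes in the tables. The RNA came from primary hippocampal neurons of newborn mice homozygous for the NEDD8cKO allele, in which the CRE recombinase inactivates Nedd8, the gene of a small ubiquitin-like protein that activates cullin ubiquitin ligases. All cultures carried the floxed alleles and all were infected on the first day in vitro with a lentivirus under the neuronal Synapsin1 promoter, encoding either RFP alone (the control) or CRE together with RFP. RNA was taken on day 12 by the labels, while the study's methods give a day later. The 23 libraries were 12 CRE and 11 RFP libraries, numbered within 3 cultures (Nedd8Cre2-4 is the fourth CRE library of culture 2), and the comparison used 21 of them, 11 CRE and 10 RFP. Reading the number before the hyphen as the culture is an inference from the names, and the p-values measure the spread between libraries, which may in part be technical.

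Cells answer several kinds of stress by phosphorylating the translation factor eIF2alpha, which lowers protein synthesis as a whole while the message of Atf4 is translated more. ATF4 protein then switches on genes of amino acid supply and redox balance, and, with prolonged stress, the factor CHOP (encoded by Ddit3). Unfolded protein in the ER is sensed by PERK, which is one of the eIF2alpha kinases, by IRE1, which splices the message of Xbp1, and by ATF6, and the last pair raise chaperones such as BiP (encoded by Hspa5). A count per gene shows the amount of a message. It shows neither the translation of Atf4 nor the splicing of Xbp1.

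Binding sites of these factors were looked for in the 250 bases before the canonical start of each gene, read from the GRCm39 genome and searched on both strands. The C/EBP-ATF response element that ATF4 binds (letters TGATGNAA) was found in Atf3, Ddit3 and Chac1 and in 3.40% of 21667 promoters. The ER stress response element that ATF6 binds (CCAAT, 9 bases, CCACG) was found in Hspa5 and in 0.12% of promoters, and the element that spliced XBP1 binds (TGACGTGG) in 0 of the 10 genes and in 0.56%. These are matches of letters, and a gene without a match lacks only these letters in this window. The 30 bases around each match are given, and capitals mark the match on the strand of the gene. The 3 genes with the ATF4 letters are among the 4 that rose in CRE libraries, and Hspa5 is not. The 10 genes were chosen as genes of these responses, and the part of such sites in the rise was not tested.
Atf3, chr1:190915622-190915651, minus strand: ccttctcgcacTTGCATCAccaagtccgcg
Ddit3, chr10:127126350-127126379, plus strand: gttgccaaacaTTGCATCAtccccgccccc
Chac1, chr2:119181519-119181548, plus strand: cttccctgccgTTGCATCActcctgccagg
Hspa5, chr2:34662032-34662061, plus strand: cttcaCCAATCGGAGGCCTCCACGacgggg
The matches of Atf3, Ddit3 and Chac1 are the same 8 letters, TTGCATCA, which end 96, 192 and 152 bases before the start. Those of Chac1 and Hspa5 lie in exons of longer annotated transcripts. The whole window of Atf3 (chr1:190915538-190915787, minus strand), the gene with the largest fold change of the 10, holds no exon:
Atf3: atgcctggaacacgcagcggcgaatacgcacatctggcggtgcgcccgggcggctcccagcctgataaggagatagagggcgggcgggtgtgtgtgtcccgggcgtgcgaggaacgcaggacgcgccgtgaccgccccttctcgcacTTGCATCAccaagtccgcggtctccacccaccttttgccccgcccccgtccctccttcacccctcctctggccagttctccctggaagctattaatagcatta

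Counts assigned to genes summed to 7430401 to 13345552 per CRE library (median 11082822) and to 9833872 to 17112815 per RFP library of the comparison. Left out, as in the count table that the study supplies, were Nedd8Cre3-3, with 1546796 counts, and Nedd8RFP3-2, in which the ribosomal RNA gene Rn18s-rs5 took 24.2% of the counts. The methods name another pair of removed libraries, Nedd8Cre1-3 and Nedd8Cre3-3, so each call below was repeated on that set and on all 23 libraries. Nedd8Cre1-3 (0.261% of counts on mitochondrial genes), Nedd8Cre3-3 (1.83%) and Nedd8RFP2-4 (3.43%) stood apart from the other 20 libraries (6.997 to 11.1%), and in them GC-rich genes stood higher. The targeted gene Nedd8 was at 11.5 ± 3.49 CPM (SD, n = 11) in CRE and 61.4 ± 10.2 CPM (SD, n = 10) in RFP libraries, and the groups did not overlap. CPM are counts scaled to the size of a library with TMM factors.

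Of the 10 stress genes, 4 were higher in CRE libraries: Atf3, Ddit3, Chac1 and Sesn2, by 2.02 to 6.36 fold. None was lower, and Atf4, the central factor, did not pass the test in either direction. Calls were made at an adjusted p under 0.05 in the quasi-likelihood test of edgeR, with p-values adjusted by Benjamini-Hochberg over all genes. By the same rule DESeq2 called 4 higher and 0 lower, and limma-voom 4 higher and 1 lower, Atf5. Across 14488 genes tested, 16.4% were higher and 13.8% lower by the same test, and the 4 of 10 higher and 0 of 10 lower are to be read beside these shares. In bulk samples such as these, fewer cells of a type and less RNA per cell cannot be told apart. CRE neurons and RFP neurons stand here for libraries of whole cultures, which also held markers of glia. Which cells held a message was not tested. At an unadjusted p under 0.05 there were 6 of the 10, Hspa5 (higher) and Atf5 (lower) with the 4 already named. The same threshold was passed by 5717 of the 14488 genes tested, and the 6 of 10 are to be read beside that. The median log2 fold change of the 10 genes was 0.34 and that of all genes 0.02. No gene of the 10 passed an absolute log2 fold change of 1.3 together with a -log10 adjusted p of 6, as 201 genes did.

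**Figure D1:**
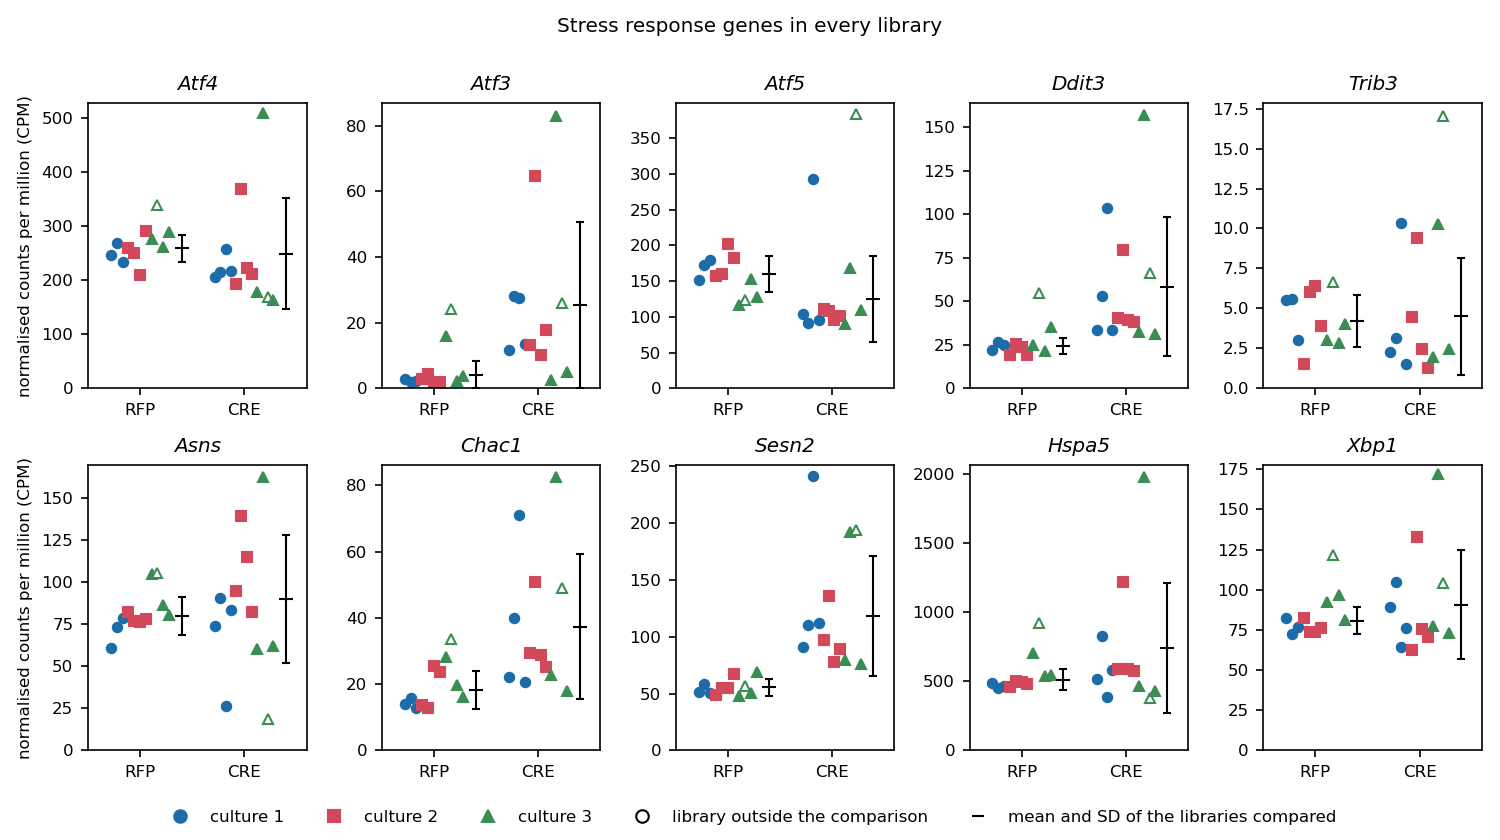
Normalised CPM (y axis, linear, from 0) of the 10 genes in each of 23 libraries, RFP on the left and CRE on the right of each panel, with symbols by culture, open symbols for the libraries outside the comparison, and bars for mean and SD over 10 RFP and 11 CRE libraries (the bars of Atf3 stop at 0). Sesn2 is the one gene whose groups do not overlap, while 1 or 2 CRE libraries, Nedd8Cre3-2 (up to 1980 CPM of Hspa5) and Nedd8Cre2-2, stand far above the rest in Atf4, Atf3, Hspa5 and Xbp1.

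Atf4 (ENSMUSG00000042406, GRCm39 chromosome 15 from 80139372 to 80141745) encodes the factor at the centre of the integrated stress response. In RFP libraries its level ran from 210 to 291 CPM with a median of 261, and in CRE libraries from 163 to 511 CPM with a median of 215. The groups overlapped on both sides, with 2 CRE libraries, Nedd8Cre3-2 (511) and Nedd8Cre2-2 (369), above every RFP library and 4 below every one. The means were 249 ± 102 CPM (SD, n = 11) in CRE and 259 ± 24.8 CPM (SD, n = 10) in RFP libraries, a log2 fold change of -0.07 (95% interval -0.40 to 0.26, adjusted p = 0.781 from edgeR). Without Nedd8Cre3-2 alone the log2 fold change was -0.26.

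Atf5 (ENSMUSG00000038539, chromosome 7 from 44461680 to 44466082), a related factor whose translation also follows eIF2alpha, had its lowest levels in CRE neurons. It ran from 117 to 202 CPM (median 159) in RFP and from 90.4 to 293 CPM (median 104) in CRE libraries. Of the 11 CRE libraries 9 were below every RFP library, and Nedd8Cre1-3, at 293, lay above every one. The log2 fold change was -0.38 (SE, the standard error, 0.18, adjusted p = 0.11 in edgeR) over 124 ± 60.0 CPM (SD, n = 11) and 160 ± 25.3 CPM (SD, n = 10). The outcome of the test depended on 1 library, and without Nedd8Cre1-3 the value was -0.59 (adjusted p = 5.97e-05 from edgeR), and with the GC trend of every library taken out it was -0.41 (adjusted p = 0.000489). The exons of Atf5 have the highest GC content of the 10 genes, 61.7%, and over all 23 libraries, with Nedd8Cre3-3 at 383 CPM, its difference stood at -0.11 on the log2 scale (adjusted p = 0.75 from edgeR).

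Atf3 (ENSMUSG00000026628, chromosome 1 from 190902493 to 190950241), an immediate early factor induced by many stresses, rose most. It was low in RFP neurons, from 1.81 to 15.9 CPM with a median of 2.55 (21 to 154 counts), and ran from 2.67 to 82.8 CPM with a median of 13.5 in CRE neurons. The means of 25.2 ± 25.6 CPM (SD, n = 11) and 3.97 ± 4.27 CPM (SD, n = 10) gave a log2 fold change of 2.67 (SE 0.53, adjusted p = 0.000346 in edgeR). The groups overlapped, since Nedd8RFP3-1 was at 15.9, and 5 of 11 CRE libraries exceeded every RFP library. The highest CRE libraries were Nedd8Cre3-2 (82.8) and Nedd8Cre2-2 (64.6), and the lowest were the other libraries of culture 3, Nedd8Cre3-1 (2.67) and Nedd8Cre3-4 (5.11). Without culture 3 the log2 fold change was 3.14, and over all 23 libraries, with Nedd8RFP3-2 at 24.1 CPM, it was 2.17 (adjusted p = 0.00345 from edgeR).

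Ddit3 (ENSMUSG00000025408, chromosome 10 from 127124268 to 127132163) encodes CHOP, a factor of the late, pro-apoptotic phase of the response. It ran from 18.99 to 35.1 CPM (median 24.2) in RFP and from 31.2 to 157 CPM (median 39.4) in CRE libraries. All CRE libraries lay above the RFP median and 7 of 11 above every RFP library. With Nedd8RFP3-2 (54.4 CPM) included, 4 of 12 did so over all 23 libraries and 2 of 10 on the set of the methods. The log2 fold change was 1.25 (SE 0.26, adjusted p = 0.000602 in edgeR) over means of 58.3 ± 39.98 CPM (SD, n = 11) and 24.2 ± 4.59 CPM (SD, n = 10). A second identifier that maps to Ddit3 (ENSMUSG00000116429) had 0 counts in all 23 libraries and was not used. Exons of Ddit3 overlap Mars1, a methionyl-tRNA synthetase gene on the opposite strand, over 3576 bases, and Mars1 was lower in CRE libraries (log2 fold change -0.47, adjusted p = 0.0108 from edgeR). Whether the counting used strand is not given in the sources used here.

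Trib3 and Asns, a pair of target genes often used to read ATF4 activity, did not pass the test. Trib3 (ENSMUSG00000032715, chromosome 2 from 152179337 to 152191958), a pseudokinase that dampens the ATF4 response, had 14 to 124 counts per CRE library and 18 to 108 per RFP library. It ran from 1.501 to 6.43 CPM (median 3.97) in RFP and from 1.27 to 10.4 CPM (median 2.48) in CRE libraries, so that the CRE median was the lower and the CRE mean the higher (4.502 ± 3.64 against 4.19 ± 1.63 CPM, SD, n = 11 and 10). Its log2 fold change was 0.08 (95% interval -0.71 to 0.87, adjusted p = 0.909 from edgeR), and the sign changed with the libraries and tools used. Asns (ENSMUSG00000029752, chromosome 6 from 7671667 to 7728461), which makes asparagine, ran from 61.2 to 105 CPM (median 78.6) in RFP and from 26.4 to 163 CPM (median 83.5) in CRE libraries. The log2 difference was 0.16 (95% interval -0.25 to 0.56, adjusted p = 0.604 from edgeR), with 90.2 ± 38.0 CPM (SD, n = 11) against 80.0 ± 11.1 CPM (SD, n = 10). The CRE libraries spread on both sides of the RFP range, with 3 above and 2 below every RFP library.

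Chac1 (ENSMUSG00000027313, chromosome 2 from 119180757 to 119184866), an enzyme that degrades glutathione and is a target of ATF4 and CHOP, was higher in CRE neurons. It ran from 12.7 to 28.3 CPM (median 15.9) in RFP and from 17.8 to 82.6 CPM (median 28.8) in CRE libraries. Above every RFP library were 6 of 11 CRE libraries. With Nedd8RFP3-2 (33.6 CPM) included, 5 of 12 were so over all 23 libraries and 3 of 10 on the set of the methods. The log2 fold change was 1.02 (SE 0.26, adjusted p = 0.0038 in edgeR) over 37.3 ± 21.8 CPM (SD, n = 11) and 18.2 ± 5.70 CPM (SD, n = 10). The groups overlapped between the lower CRE libraries, such as Nedd8Cre3-4 (17.8) and Nedd8Cre1-4 (20.5), and the higher RFP libraries, such as Nedd8RFP3-1 (28.3) and Nedd8RFP2-3 (25.5).

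Sesn2 (ENSMUSG00000028893, chromosome 4 from 132219335 to 132237815), a leucine sensor that restrains mTORC1 and is also a target of p53 and NRF2, was higher in every CRE library. It ran from 48.0 to 69.2 CPM (median 53.1) in RFP and from 76.3 to 242 CPM (median 97.1) in CRE libraries. Every CRE library exceeded every RFP library, which 4.72% of the genes tested did in one direction or the other, and Sesn2 was the one gene of the 10 to do so. The log2 fold change was 1.08 (SE 0.18, adjusted p = 5.97e-05 in edgeR) over 119 ± 52.98 CPM (SD, n = 11) and 55.4 ± 7.58 CPM (SD, n = 10). The groups stayed apart in all 23 libraries, with 12 of 12 CRE libraries above the highest of the 11 RFP libraries.

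Hspa5 (ENSMUSG00000026864, chromosome 2 from 34661982 to 34668880) encodes BiP, the main chaperone of the ER and the usual readout of the ATF6 branch. It ran from 451 to 708 CPM (median 492) in RFP and from 383 to 1980 CPM (median 581) in CRE libraries. The means were 742 ± 471 CPM (SD, n = 11) and 513 ± 75.4 CPM (SD, n = 10), a log2 fold change of 0.52 (SE 0.23, adjusted p = 0.0877 in edgeR). Only Nedd8Cre3-2 (1980), Nedd8Cre2-2 (1217) and Nedd8Cre1-2 (827) exceeded every RFP library, and the other 8 CRE libraries lay between 383 and 593 CPM. With counts summed per culture, 3 sums against 3, the log2 fold change was the same size (0.52, adjusted p = 0.0237 from edgeR). With the GC trend removed it was 0.62 (adjusted p = 0.0476 from edgeR). Without Nedd8Cre3-2 alone it was 0.22 (adjusted p = 0.338 from edgeR), and the sums were not repeated without that library. Exons of Hspa5 overlap Rabepk on the opposite strand over 2457 bases, and Rabepk was higher in CRE libraries (log2 fold change 0.70, adjusted p = 0.00709 from edgeR).

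Xbp1 (ENSMUSG00000020484, chromosome 11 from 5470606 to 5483027), the message that IRE1 splices, ran from 72.7 to 96.9 CPM (median 79.1) in RFP and from 62.6 to 172 CPM (median 76.4) in CRE libraries. With 3 CRE libraries above and 3 below every RFP library, the log2 fold change was 0.15 (95% interval -0.16 to 0.47, adjusted p = 0.506 from edgeR). The means were 90.8 ± 33.8 CPM (SD, n = 11) in CRE and 80.9 ± 8.19 CPM (SD, n = 10) in RFP libraries. Exons of Xbp1 overlap Ccdc117 on the opposite strand over 1526 bases.

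**Figure D2:**
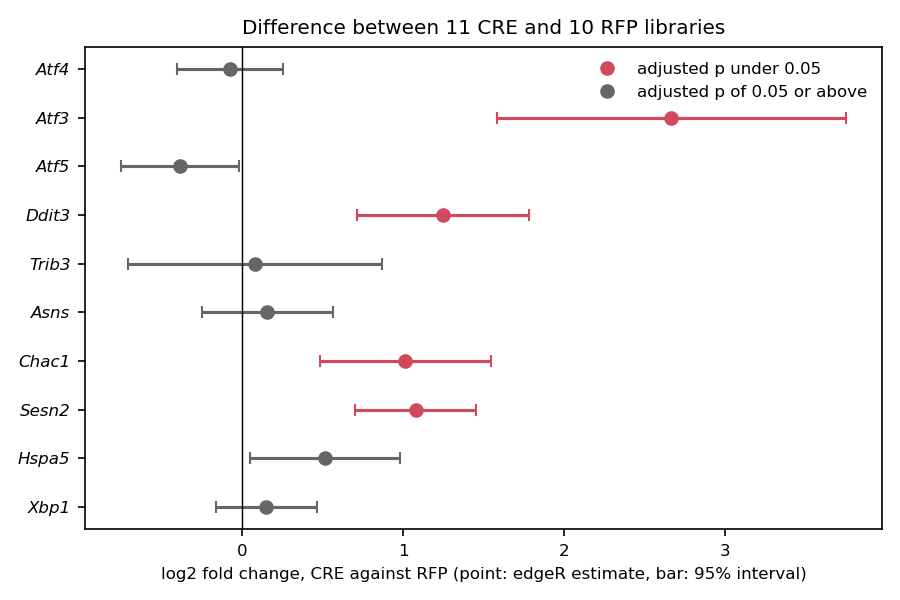
Log2 fold change of CRE against RFP (x axis) for the 10 genes, as edgeR's estimate with its 95% interval over 11 CRE and 10 RFP libraries, in red where the adjusted p was under 0.05. Atf3, at 2.67, has the largest change and the widest interval, and the intervals of Atf4, Trib3, Asns and Xbp1 span 0.

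The SD of each of the 10 genes was larger in CRE than in RFP neurons, and few libraries held the highest values. Nedd8Cre3-2 was the highest CRE library for 7 of the 10 genes and Nedd8Cre1-3 for the other 3. In culture 2, Nedd8Cre2-2 was the highest CRE library for 9 genes, and in culture 3, Nedd8Cre3-2 was the highest for all 10. Summed over the 10 genes, the level was 3520 CPM in Nedd8Cre3-2, 2307 in Nedd8Cre2-2 and 1564 in Nedd8Cre1-2, against 971 to 1479 CPM in the other 8 CRE libraries and 1122 to 1417 CPM in the 10 RFP libraries. Nedd8RFP3-2, outside the comparison, held 1787 CPM, with 922 of Hspa5, 54.4 of Ddit3 and 24.1 of Atf3. These 4 libraries all carry the library number 2, as do Nedd8RFP1-2 (1148 CPM) and Nedd8RFP2-2 (1167 CPM), and no source used here says what the number stands for beyond a replicate. The share of counts on Rn18s-rs5 was 4.06% in Nedd8Cre3-2, 2.64% in Nedd8Cre2-2, 2.89% in Nedd8Cre1-2 and 24.2% in Nedd8RFP3-2. Over all libraries but Nedd8RFP3-2 it ran from 0.856 to 5.86%. Nedd8Cre3-2 had the most genes detected, 23738. The rank correlation of gene levels, taken against the mean of the other libraries, with GC content was 0.106 in Nedd8Cre3-2. That was the highest of the 20 libraries other than Nedd8Cre1-3, Nedd8Cre3-3 and Nedd8RFP2-4. The median of those 20 was -0.218. The part of these values in the levels of the stress genes was not tested.

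**Figure D3:**
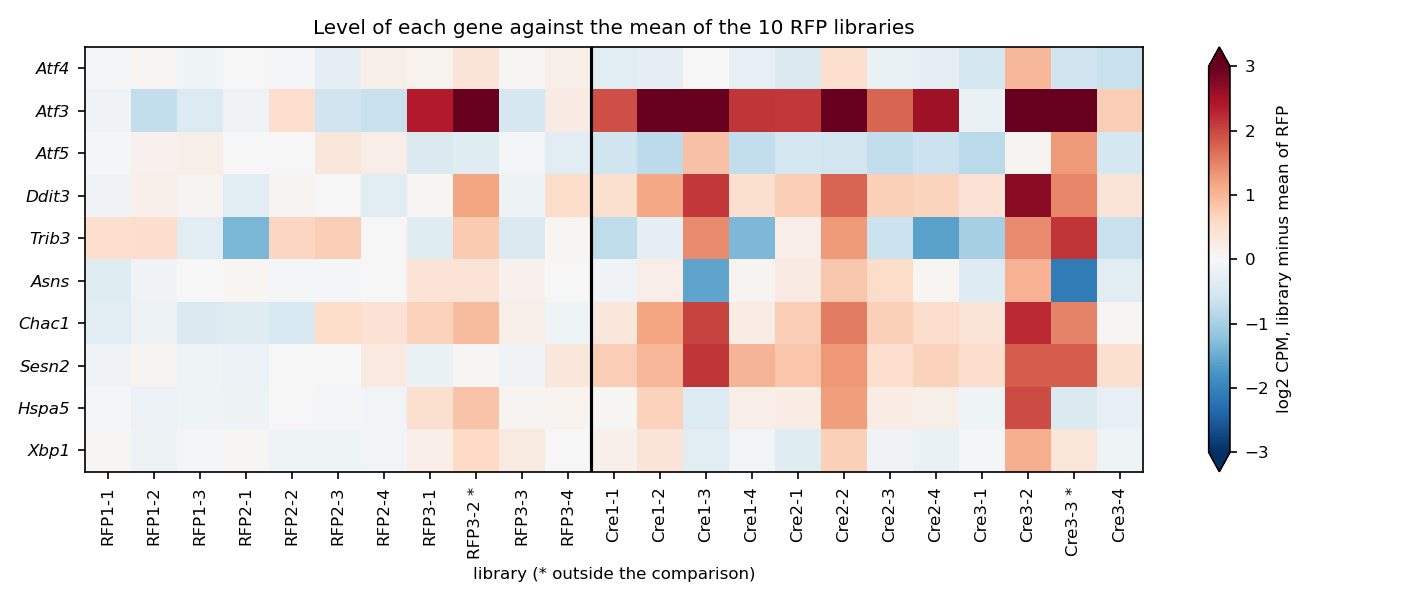
Log2 CPM of each gene (rows) in each library (columns, RFP left and CRE right of the line, * for a library outside the comparison) minus the mean log2 CPM of the 10 RFP libraries of the comparison, with colours that end at 3 in either direction. Nedd8Cre3-2, Nedd8Cre2-2 and Nedd8RFP3-2 are red across nearly all rows, while Nedd8Cre1-3 and Nedd8Cre3-3 are red in Atf3, Atf5, Ddit3, Trib3, Chac1 and Sesn2 and blue in Asns.

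Nedd8Cre1-3 had another pattern. It was the highest CRE library for Atf5 (293 CPM), Sesn2 (242) and Trib3 (10.4), whose exons have the highest GC content of the 10 genes (61.7, 58.7 and 58.3%), and the lowest for Asns (26.4) and Hspa5 (383), whose exons have the lowest (46.7 and 44.4%). Its level of Atf3, whose exons have a GC content of 52.2%, was 27.5 CPM, also above every RFP library of the comparison. With the GC trend taken out, the 4 higher genes stayed higher and their log2 fold changes were 2.60 for Atf3, 1.13 for Ddit3, 0.91 for Chac1 and 0.99 for Sesn2.

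The 4 calls were made again with the libraries that stood apart left out. Without Nedd8Cre2-2 and Nedd8Cre3-2 the log2 fold changes were 1.84 for Atf3, 0.85 for Ddit3, 0.72 for Chac1 and 0.93 for Sesn2, and all 4 kept an adjusted p under 0.05 from edgeR, the highest being 0.0278 for Chac1. That of Hspa5 was 0.06 and that of Atf4 -0.37. Without every library numbered 2, Atf3, Ddit3 and Sesn2 were called (1.58, 0.85 and 0.94) and Chac1 was not (0.59, adjusted p = 0.135 from edgeR), and Hspa5 stood at -0.06. These libraries were left out after their levels of the same genes were seen, so the values describe how far each difference rests on them and give no test of their own, including for Atf4. With all 23 libraries included they were 2.17, 1.13, 0.96 and 1.16 for Atf3, Ddit3, Chac1 and Sesn2, and all 4 were called there and on the set of the methods.

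**Figure D4:**
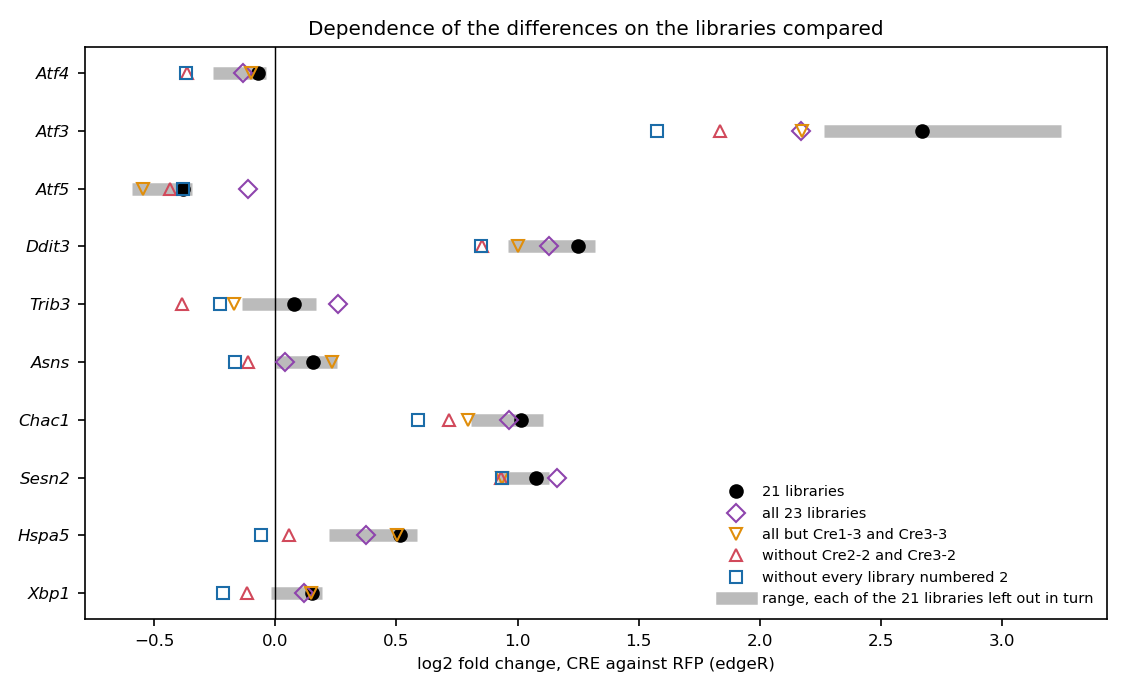
Log2 fold change of CRE against RFP (x axis, edgeR) of the 10 genes with the libraries named in the key, with grey bars for the range when each of 21 libraries is left out in turn. Sesn2 moves least of the 4 higher genes, from 0.92 to 1.13 in the grey bar, while Hspa5 goes from 0.52 to 0.06 without 2 CRE libraries and to -0.06 without every library numbered 2.

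Fitted by culture, the log2 fold changes in cultures 1, 2 and 3 were 3.11, 3.22 and 2.07 for Atf3 (SE 0.48, 0.56 and 1.58), 1.17, 1.13 and 1.43 for Ddit3 (0.43, 0.24 and 0.70), 1.41, 0.78 and 0.94 for Chac1 (0.46, 0.28 and 0.57), and 1.36, 0.78 and 1.05 for Sesn2 (0.37, 0.18 and 0.36). With 3 or 4 libraries a group, 1 of the 10 genes was called in culture 1 (Atf3), 4 in culture 2 (Atf3, Ddit3 and Sesn2 higher, Atf5 lower) and 0 in culture 3. The share of all genes called in each of these fits was not computed, so these counts do not compare the stress genes between cultures. In culture 3 the values of Atf3 and Chac1 (adjusted p = 0.506 and 0.368 from edgeR) rest on Nedd8Cre3-2. Its other CRE libraries were at 2.67 and 5.11 CPM of Atf3, beside an RFP mean of 7.22, and at 22.8 and 17.8 CPM of Chac1, beside 21.3. For Ddit3, at 157 CPM in Nedd8Cre3-2, they were at 32.3 and 31.2 CPM, within the RFP range of the culture (21.5 to 35.1). For Sesn2 they were at 79.5 and 76.3 CPM, above the 3 RFP libraries of the culture (48.0 to 69.2). Atf5 had values of -0.21, -0.80 and -0.11 and Hspa5 of 0.29, 0.58 and 0.68, of which none was called for Hspa5 (adjusted p = 0.0681 to 0.694). In culture 3 the Hspa5 value also rests on Nedd8Cre3-2, since the other CRE libraries (464 and 430 CPM) lay below the RFP libraries of that culture (539 to 708 CPM). A test of unequal differences between the cultures, the group by culture interaction in edgeR, gave adjusted p-values from 0.977 to 0.99 for the 10 genes, and 0.0069% of all genes, 1 gene, passed it.

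The genes also varied together within the groups. Taken as deviations from the CRE and RFP means on the log2 CPM scale, 40 of 45 pairs of the 10 genes had a positive Pearson correlation over 21 libraries (median 0.59), and the highest were Hspa5 with Xbp1 (0.90) and Ddit3 with Sesn2 (0.85). Atf5 with Asns was at -0.48. Libraries share their depth and scaling across genes, and without Nedd8Cre1-3, Nedd8Cre2-2, Nedd8Cre3-2 and Nedd8RFP2-4, 33 of 45 pairs were positive (median 0.30, n = 17 libraries). Among 11501 genes with a mean of at least 5 CPM, those most like Atf4 were Hyou1, an ER chaperone (0.93), Calr, the ER lectin calreticulin (0.91), and Slc7a1, a transporter of basic amino acids (0.90). Those most like Hspa5 were Efr3b (0.93), Atf6, the ER stress sensor (0.92), and Xbp1. This search used all 21 libraries, with the high Nedd8Cre3-2 and Nedd8Cre2-2 among them, and was not repeated without them. For Hspa5 with Xbp1 the correlation was 0.55 without the 4 libraries.

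Levels were compared between genes per kilobase of the canonical transcript. The messages of Atf4 (149 ± 14.3 CPM per kb, SD, n = 10), Hspa5 (104 ± 15.2) and Atf5 (88.2 ± 13.9) were the most abundant of the 10 in RFP neurons, and their ranges over libraries overlapped from each gene to the next. Below them, with no overlap at either step, came Xbp1 (41.1 ± 4.16) and then Ddit3 (24.8 ± 4.69), Asns (16.3 ± 2.26), Sesn2 (15.9 ± 2.17) and Chac1 (10.97 ± 3.43), each overlapping with the next, while Trib3 (2.00 ± 0.78) and Atf3 (2.00 ± 2.15) were lowest. In CRE neurons Hspa5 (150 ± 95.1, SD, n = 11) and Atf4 (143 ± 58.7) came first and every gene overlapped with the next. The order in the middle depends on the length used, since the share of annotated exon bases outside the canonical transcript differs between the genes. Divided by all annotated exon bases, RFP levels were 12.2 for Sesn2, 11.7 for Xbp1, 7.03 for Chac1, 6.83 for Asns and 4.35 CPM per kb for Ddit3, and the same 3 genes came first.

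The rest of the pathway was followed in 8 lists of genes written from general knowledge, with earlier results of these data known. Of 42 further targets of ATF4 and CHOP tested, 19 were higher and 1 lower in CRE neurons (45.2 and 2.38%, beside 16.4 and 13.8% of all genes), with a median log2 fold change of 0.51. The 3 with the smallest p did not overlap between the groups. Tnfrsf10b, a death receptor gene that p53 also induces, was at 14.4 ± 3.73 CPM (SD, n = 11) against 2.94 ± 1.41 CPM (SD, n = 10), Slc1a4, a transporter of serine and other neutral amino acids, at 481 ± 127 against 221 ± 37.7, and Sqstm1, an autophagy receptor that NRF2 also induces, at 550 ± 92.7 against 338 ± 27.8. Their log2 fold changes were 2.27, 1.10 and 0.69 (adjusted p = 1.33e-07, 1.05e-06 and 4.8e-06 from edgeR). Cbs, an enzyme that makes cystathionine from homocysteine, fell by 1.51 on the log2 scale (adjusted p = 9.79e-05). The genes in the rest of this paragraph are named after their values were seen. The serine synthesis genes Psat1 (0.27), Phgdh (-0.30) and Psph (0.17) did not pass the test. Among one-carbon genes, Aldh1l2 (0.71, adjusted p = 0.0336 from edgeR) was called higher. Mthfd1l (0.50), Shmt2 (0.25) and Mthfd2 (-0.01) did not pass.

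Of 38 ER chaperones and folding enzymes tested, 19 were higher and 1 lower (50 and 2.63%), with a median of 0.39. Fkbp9 (82.6 ± 22.7 against 34.7 ± 7.89 CPM, log2 fold change 1.23) and Fkbp10 (1.18), prolyl isomerases of the secretory pathway, and Dnajc3 (0.72), a co-chaperone of BiP that also inhibits PERK, had the smallest p (adjusted p = 2.56e-06, 0.00055 and 0.000618 from edgeR). Selenom, a selenoprotein of the ER, fell by 0.72 on the log2 scale (adjusted p = 0.00785). Among the most abundant chaperones, all named after their values were seen, Hsp90b1 (0.12), Calr (-0.13) and Canx (0.43) did not pass. P4hb (0.56), Hyou1 (0.65) and Pdia3 (0.34) were higher (adjusted p = 0.00145, 0.0287 and 0.043 from edgeR). Both counts depended on the libraries: without Nedd8Cre2-2 and Nedd8Cre3-2, 13 of 42 targets and 11 of 38 chaperones were higher (14% of all genes), and without every library numbered 2, 11 and 6 (11.5% of all genes).

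The list of ER stress sensors with their proteases, membrane-bound relatives and apoptotic or signalling partners had 4 of 16 tested genes higher and 1 lower (25 and 6.25%, beside 16.4 and 13.8% of all genes). Creb3l2, an ER-bound factor of the CREB3 family, was at 43.1 ± 9.11 CPM (SD, n = 11) against 12.5 ± 3.00 CPM (SD, n = 10) with no overlap, a log2 fold change of 1.76 (adjusted p = 3.43e-09 from edgeR). Ern1, which encodes IRE1alpha (0.99), and Bax, a pro-apoptotic gene that p53 also induces (0.87), were higher too (adjusted p = 0.000278 and 0.000142). The remaining one of the 4 was Tmbim6, a protein of the ER membrane that restrains cell death (0.53, adjusted p = 0.00568), and Atf6 itself was at 0.39 (adjusted p = 0.117), both named after their values were seen. Mbtps2, the protease that releases ATF6, fell by 0.89 on the log2 scale (adjusted p = 0.000956). Of 23 genes of the eIF2 pathway (the eIF2alpha kinases and phosphatase subunits, their regulators, the subunits of eIF2 and eIF2B, and factors of re-initiation), 6 were higher and 2 lower (26.1 and 8.7%), with a median of 0.01. Higher were Dnajc3, Eif2ak3, which encodes PERK (36.8 ± 9.44 against 22.1 ± 5.10 CPM, log2 fold change 0.71, adjusted p = 0.00109 from edgeR), and Dele1, which relays mitochondrial stress (0.57, adjusted p = 0.000832). Lower were Mcts1, a factor of translation re-initiation (-1.05, adjusted p = 0.00134), and Eif2b5, the catalytic subunit of eIF2B (-0.46, adjusted p = 0.0031). The other 3 genes called higher are named here after their values were seen. They were Ppp1r15a, the stress-induced phosphatase subunit GADD34 (log2 fold change 1.42, adjusted p = 0.00121 from edgeR), and the eIF2alpha kinase genes Eif2ak2, which encodes PKR (0.90, adjusted p = 0.0119), and Eif2ak4, which encodes GCN2 (0.61, adjusted p = 0.0176). The kinase gene Eif2ak1, which encodes HRI, was at -0.18 (adjusted p = 0.201).

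In the remaining lists fewer than 1 in 4 genes were called higher, beside 16.4% of all genes higher and 13.8% lower. ER-associated degradation had 8 of 34 higher and 1 lower (23.5 and 2.94%, median 0.20), among them Stt3b (0.97), Os9 (0.76) and Herpud2 (0.54), with Ngly1 lower (-0.58). The shares called higher in the other 3 lists were near that of all genes, and their genes are named by the same rule. Cytosolic tRNA synthetases, many of which are ATF4 targets, had 5 of 24 higher and 3 lower (20.8 and 12.5%, median 0.07): Qars1 (0.46), Sars1 (0.51) and Cars1 (0.44) were among the higher, and Mars1 (-0.47) and Farsb (-0.69) were among the lower. The translocon had 4 of 22 higher and 1 lower (18.2 and 4.55%, median 0.14), with Srprb (0.54), Sec61a1 (0.40) and Sec11c (0.54) higher and Srp14 (-0.30) lower, and the mitochondrial unfolded protein response had 2 of 15 higher, Hspa9 (0.62) and Afg3l2 (0.36), and 0 lower (13.3 and 0%, median 0.05). All these calls are at an adjusted p under 0.05 from edgeR.

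**Figure D5:**
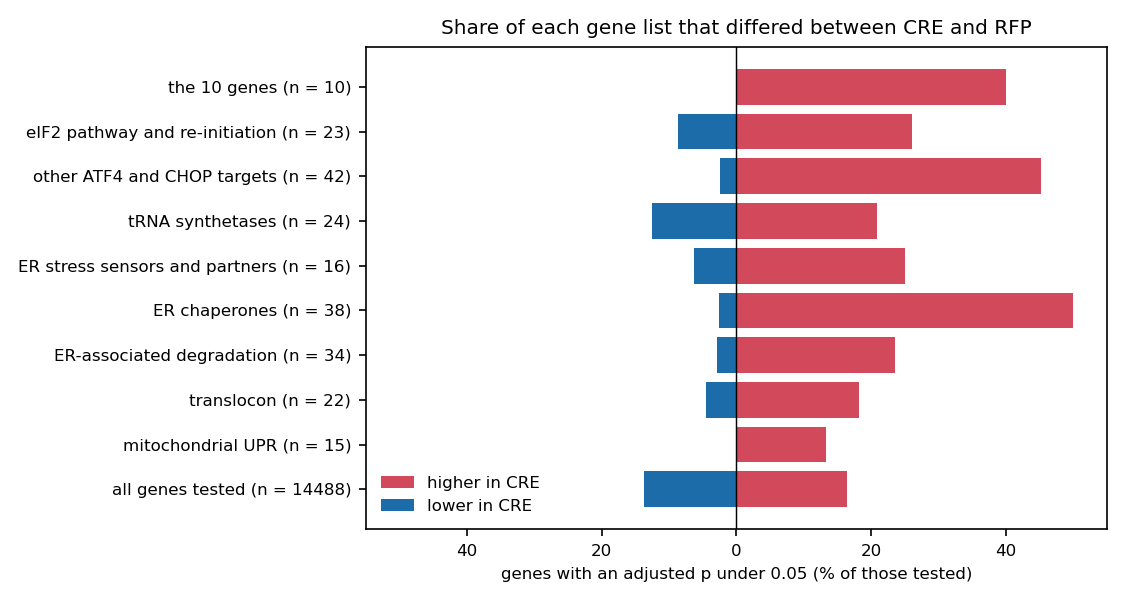
Share of the tested genes of each list (y axis) that were higher (red, to the right) or lower (blue, to the left) in CRE libraries at an adjusted p under 0.05, in percent of the genes tested. The other targets of ATF4 and CHOP (45.2%) and the ER chaperones (50%) have the longest red bars of the 8 further lists, beside 16.4% of all genes.

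Markers of cell types moved between the groups as well, and the counts below are to be read beside all genes, 16.4% higher and 13.8% lower. Of 8 neuronal markers 6 were lower in CRE libraries and 0 higher (median log2 fold change -0.75), and their summed level was 2545 to 5532 CPM in CRE and 6005 to 7129 CPM in RFP libraries. Of 8 markers of the oligodendrocyte lineage 5 were lower (median -0.99, summed 425 to 1910 against 647 to 1867 CPM), with Sox10 at 0 counts in 3 CRE libraries. Of 8 astrocyte markers 2 were higher and 3 lower (median -0.43, summed 1027 to 3857 against 2263 to 5511 CPM). Microglial markers summed to at most 7.70 CPM. Cx3cr1 was at 0 counts in 11 CRE and 7 RFP libraries, and P2ry12 in 1 and 4. Of the 2 microglial markers tested 1 was higher and 0 lower. The higher one, named after its value was seen, was Tmem119 (log2 fold change 3.21, adjusted p = 0.000517 from edgeR), with at most 41 counts. Of 6 tested markers of endothelial and mesenchymal cells 1 was higher and 1 lower (16.7 and 16.7%, near the shares of all genes). The markers of this list summed to 15.0 to 241 CPM in CRE and 17.5 to 114 CPM in RFP libraries. Neuronal markers were present in every library. The part of cell composition in the levels of the stress genes was not tested.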

How the data were processed

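RNA of 12 CRE and 11 RFP libraries was read as gene counts. According to the labels, reads were demultiplexed with bcl2fastq 2.20.0.422, aligned with STAR 2.7.8a to GRCm39 and counted with featureCounts 1.5.0-p1, and the authors deposited these whole-number counts per gene without normalization; strand setting and handling of multi-mapped reads are not given in the sources used here. Groups and cultures came from the sample titles. Gene names, exon lengths and promoters came from the GENCODE M39 annotation of the same build and a GRCm39 genome.

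CRE and RFP were compared in R 4.3.3 with edgeR 4.0.16 (filterByExpr, TMM, estimateDisp, robust glmQLFit, glmQLFTest) in 21 libraries, without covariates, and p-values were adjusted by Benjamini-Hochberg across the 14488 genes tested. DESeq2 1.42.0 and limma-voom (limma 3.58.1) were alternatives, beside other library sets, scalings, filters, blocks and a GC correction. CPM for display used TMM factors over all 23 libraries. The code was tested on simulated data. Figures used Python with matplotlib 3.10.9. No pair of replicates agreed within sampling noise.

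The 10 genes and all lists were chosen with earlier results of these data known. Named were the 10 genes, Nedd8, for each of 8 lists the up to 3 genes higher and 3 lower that had the smallest p at an adjusted p under 0.05, and the 3 genes most correlated with Atf4 and with Hspa5 among those with a mean of at least 5 CPM; 1 gene that this rule names is not reported here. Others are said in the text to have been chosen after their values were seen. Trib3 and Atf3 had the fewest counts of the 10 genes, from 14 and 21 per library, and are measured least precisely.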

Additional observations from a re-analysis of the deposited data

Results flagged for a closer look

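Among the 10 RFP libraries of the comparison, 3 of the 10 genes had a highest library that stood far from the other RFP libraries (gap to the next library over the whole range, against Dixon's 95% critical value of 0.466), where chance gives about 1 in 20 per gene for values with a normal spread. Of all 14488 genes tested, 13.2% had such a library at either end. Atf3 was at 15.9 CPM in Nedd8RFP3-1 (gap 0.823 of the range), Hspa5 was at 708 CPM in the same library (0.635), and Ddit3 was at 35.1 CPM in Nedd8RFP3-4 (0.530). Of these 3, 2 are in the same library and are not independent. The criterion was applied to groups of up to 10 libraries, so the CRE group, whose high libraries Nedd8Cre3-2, Nedd8Cre2-2 and Nedd8Cre1-3 are described with the results, was not examined by it.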

How the results depend on the processing

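The 4 higher genes were called by DESeq2, limma-voom and edgeR with either other scaling, over all 23 libraries, without any single library or culture, and without a filter on low counts; past the stricter thresholds the count was 0. Leaving out each library or culture gave 4 members higher throughout, 0 to 1 lower, 11 to 20 ATF4 and CHOP targets and 6 to 21 chaperones higher, and 2114 to 5507 genes in all. With culture and library number as replicate block, over the pairs that exist, 3 members (without Chac1, adjusted p = 0.0584 from edgeR), 10 targets and 9 chaperones were higher, 1 member lower and 3152 genes called. Same-numbered libraries of the comparison correlated at -0.053 to 0.102 and cultures at 0.016, 0.031 and 0.131, so no pairing by number was seen among them. Nedd8Cre3-2 and Nedd8RFP3-2 were not compared in this way, since Nedd8RFP3-2 was outside the comparison. Culture alone as block moved no call of the 10. Without every library numbered 2 (a setting, like those that leave out more than 1 CRE library, added after seeing the data), 3 members, 11 targets and 6 chaperones were higher, and without Nedd8Cre2-2 and Nedd8Cre3-2, 11 chaperones. Without a filter 6920 genes were called. The lower count rose from 0 to 1 (Atf5) on the set of the methods, in 19 libraries (without Nedd8Cre1-3 and Nedd8RFP2-4), with limma-voom, also with correlated libraries, with sums per culture with and without block, with the GC trend removed and in both settings without libraries numbered 2 (Atf4), and to 2 without Nedd8Cre1-3, Nedd8Cre2-2, Nedd8Cre3-2 and Nedd8RFP2-4.

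Signs changed for 4 of the 42 named genes. Trib3 was at -0.17 on the set of the methods, -0.13 in 19 libraries, -0.27 with limma-voom and with correlated libraries, -0.35 with the replicate block, -0.0066 with sums per culture, -0.044 with the GC trend removed, -0.14 to 0.20 with 1 library or culture left out, -0.23 without library number 2, -0.39 without Nedd8Cre2-2 and Nedd8Cre3-2 and -0.79 without the 4 libraries. Asns was at -0.080 with the block, -0.019 to 0.28 with 1 library or culture left out, and -0.17 and -0.11 in the settings without libraries numbered 2. Xbp1 was at -0.0075 with the block, -0.016 to 0.19 with 1 library or culture left out, and -0.22, -0.12 and -0.048 in the 3 added settings. Hspa5 was at -0.061 without library number 2. The cause was not tested. The 32 named genes outside the 10 kept their direction in 42 settings each.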
